A study of Mus musculus with 12 samples.

Results

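The DNA damage signalling and repair genes described here are a list of 37 genes: Fanconi anaemia pathway members, homologous recombination and end-joining factors, break sensors and checkpoint kinases, helicases, replication protein A, base excision factors and one mismatch repair gene. They were chosen by name, with earlier results of these data known. Of the 37 genes, 36 had a probe set annotated to that gene alone on the Affymetrix array, and 35 of these were bright enough to be tested, among 12083 genes tested of 18193 with such a probe set. Where a gene had several probe sets, the brightest one on average over the 12 arrays was read. Xrcc2 has no value here. Fance, a Fanconi core complex subunit, stayed below the filter on the brighter of its 2 probe sets, with signals between 4.9 and 95. Its other probe set was dimmer on average and was not put to the filter.

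The arrays measured RNA from sorted haematopoietic stem cells (HSCs) of mouse bone marrow in 4 groups of 3 biological replicates. The first is GFPhigh cells, called quiescent in the labels, of mice carrying the oncogenic NrasG12D/+ allele (Nras). The second is GFP- cells, called cycling in the labels, of the same genotype. The third and the fourth are GFPhigh and GFP- cells of wild-type mice. All mice drank doxycycline water for 6 weeks and were then followed for 12 weeks without it, so every group shares that treatment. G12D is a protein change that keeps the small GTPase Nras in its active form. In such a label-retention design, a GFP pulse is diluted by division, so cells that kept it have divided least. The promoter that drives GFP, the way the Nras allele was switched on, and the mice's age and number are not given in the sources used here, so p-values measure the spread between these samples.

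DNA repair is divided among pathways that meet different lesions. The Fanconi anaemia pathway opens crosslinks between DNA strands, homologous recombination copies a broken end from the sister chromatid and so works mainly in dividing cells, and end joining seals broken ends directly in any phase of the cell cycle. The kinases ATM and ATR sense breaks and stalled forks, and CHEK1 and CHEK2 pass the signal on to stop the cell cycle. Blood stem cells depend on these pathways over a lifetime: inherited loss of a Fanconi gene leads to bone marrow failure.

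Many recombination, Fanconi and checkpoint genes are textbook targets of E2F transcription factors, which act at the entry into S phase, so the promoters of the genes were searched for the 7-base E2F-type cores TTCCCGC and TTGGCGC on both strands. These 2 cores differ in sequence, and a window counted once however many it held. The windows held the 250 bases before the start site in RefSeq (build GRCm38.p6) and the 50 bases from it on. Of 30 listed genes with a window, 16 held a core (53.3%). The share was 7.79% among the 27025 genes of the promoter table, 13.8% among the tested genes with a window and 27% among 63 other repair genes. Of the 16 genes with a core, 4 have their windows printed below. They are among the genes named in the results that follow, as are genes without a core. The windows read 5′ to 3′ on the gene's own strand, with the core in capitals as it reads on the printed strand. Chek1 lies at chr9:36726609-36726908 (minus strand), Brca1 at chr11:101551906-101552205 (minus strand), Fancb at chrX:164980342-164980641 (plus strand) and Rpa2 at chr4:132768110-132768409 (plus strand).
Chek1: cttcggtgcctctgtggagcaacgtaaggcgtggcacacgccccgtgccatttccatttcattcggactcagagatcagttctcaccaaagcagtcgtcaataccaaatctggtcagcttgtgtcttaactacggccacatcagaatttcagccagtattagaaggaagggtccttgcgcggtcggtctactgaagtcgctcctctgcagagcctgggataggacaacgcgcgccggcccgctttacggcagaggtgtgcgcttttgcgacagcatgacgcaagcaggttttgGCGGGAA
Brca1: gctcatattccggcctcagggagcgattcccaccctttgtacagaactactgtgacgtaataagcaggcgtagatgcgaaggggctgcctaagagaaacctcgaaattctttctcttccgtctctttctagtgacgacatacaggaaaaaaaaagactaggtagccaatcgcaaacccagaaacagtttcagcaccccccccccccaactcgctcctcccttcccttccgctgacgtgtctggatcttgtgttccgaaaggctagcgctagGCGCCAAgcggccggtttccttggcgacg
Fancb: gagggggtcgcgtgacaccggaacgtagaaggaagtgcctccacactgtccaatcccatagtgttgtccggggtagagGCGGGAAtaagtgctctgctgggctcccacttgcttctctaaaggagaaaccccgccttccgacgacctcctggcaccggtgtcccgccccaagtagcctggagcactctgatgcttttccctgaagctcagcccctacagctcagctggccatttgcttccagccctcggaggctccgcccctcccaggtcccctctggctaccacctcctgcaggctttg
Rpa2: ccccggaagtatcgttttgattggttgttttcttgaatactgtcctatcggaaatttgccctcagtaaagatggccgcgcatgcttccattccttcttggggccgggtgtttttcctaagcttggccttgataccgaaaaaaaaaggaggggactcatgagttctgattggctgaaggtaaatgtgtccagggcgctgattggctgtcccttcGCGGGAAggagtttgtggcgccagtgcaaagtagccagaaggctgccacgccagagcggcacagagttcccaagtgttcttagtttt
With the start site as base 1, the core begins at base 44 in Chek1 and at base 22 in Brca1. It begins 172 bases before the start site in Fancb and 37 bases before it in Rpa2. Fancg and Msh6, a DNA mismatch recognition subunit, also held a core. The window of Xrcc3, a recombination factor, held none, and Prkdc had no window in the promoter table. A match is a description of these letters and says nothing of binding.

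The arrays came scaled to a trimmed mean of 500, and their median signals ran between 44 and 129.6, so a signal under about 100 is dim on these arrays. Across the genes described here, the median standard deviation between replicates of a group was 1.20 on the log2 scale, against 1.04 over all genes tested. Array weights were 0.308 to 0.522 for 4 arrays, called uneven from here on, and 0.903 to 2.46 for the others. The uneven arrays are Nras GFPhigh replicates 1 and 2, Nras GFP- replicate 1 and wild-type GFPhigh replicate 2. Replicate 3 of each group had Xist signals of 91.8 to 205.1 and Eif2s3y signals of 3877 to 4545, while replicates 1 and 2 had Xist signals of 5773 to 11481 and Eif2s3y signals of 2.3 to 675, so these sex-linked transcripts split the replicates and not the groups. All 8 HSC markers with a usable probe set were above the array's median signal on every array. The Nras probe set does not check the genotype, since a point mutation leaves the transcript in place. In sorted bulk samples, fewer cells that express a gene and less RNA of it per cell cannot be told apart.

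**Figure D1:**
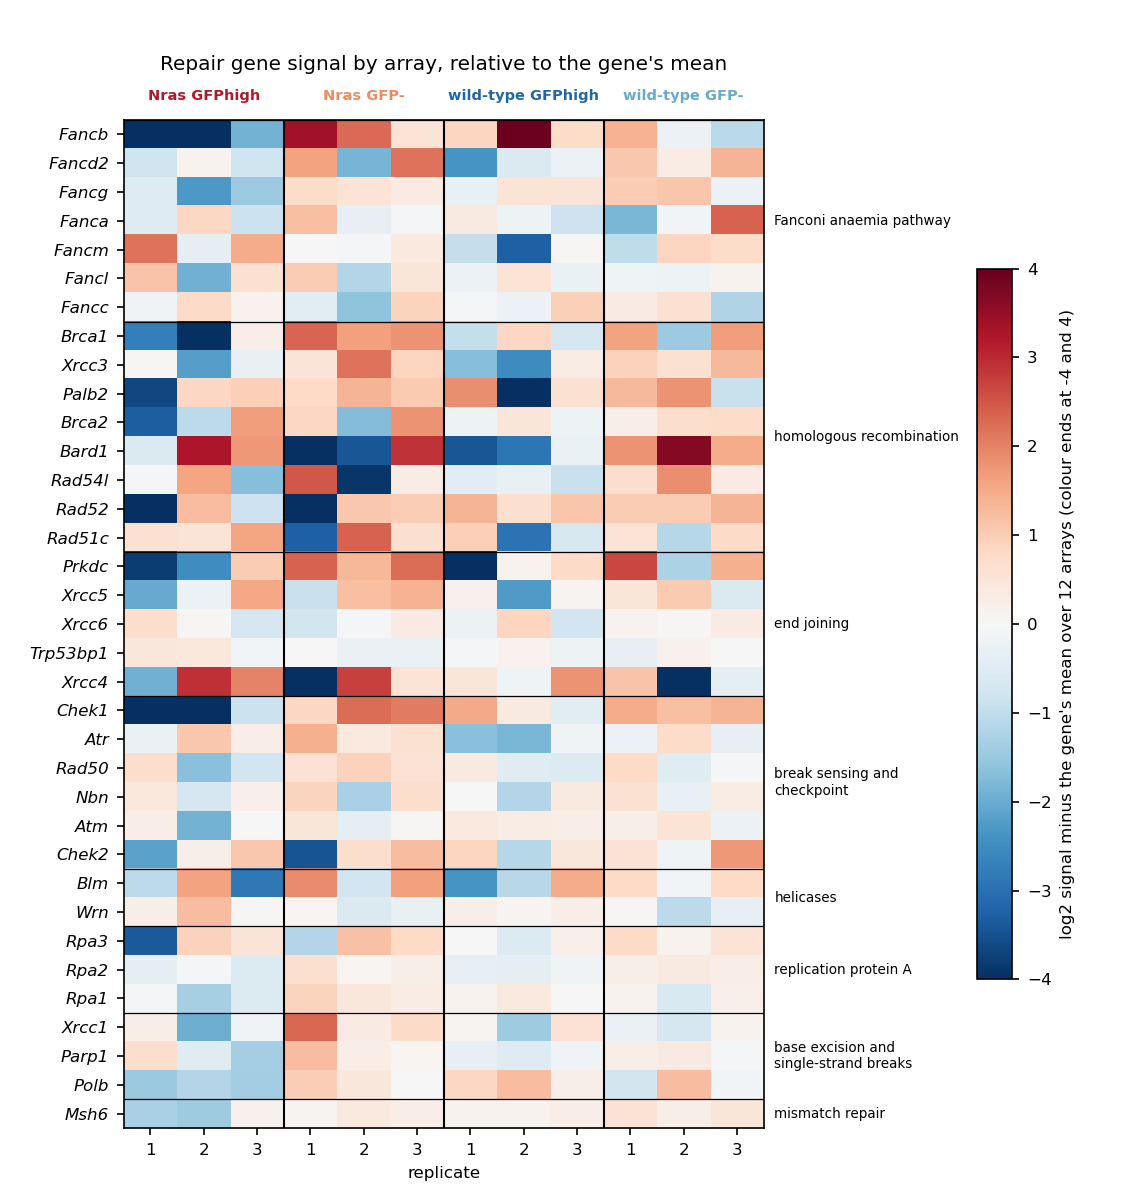
Heat map of the 35 tested genes (rows, grouped by role) on the 12 arrays (columns, Nras GFPhigh, Nras GFP-, wild-type GFPhigh, wild-type GFP-), coloured by log2 signal minus the gene's mean over all arrays. The Nras GFPhigh columns are the lowest for Chek1 and Fancb, and replicates of a group differ for many genes.

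In GFPhigh against GFP- cells, averaged over both genotypes, most of the repair genes had lower signals in the GFPhigh cells. The log2 fold change was below 0 for 30 of 35 genes, against 49% of all genes tested, and its median was -0.68, against 0.02 over all genes. No gene passed an adjusted p of 0.05 in limma, here or among all genes (0%). At an unadjusted p under 0.05, 8 of the 35 genes were lower and 0 were higher, against 4.51% and 4.36% of all genes tested. The 8 genes belong to recombination, the Fanconi pathway, the checkpoint, end joining, single-strand DNA binding and mismatch repair.

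Chek1 encodes the kinase that halts the cell cycle when replication forks stall. Its signals were 14.3, 8.2 and 173 in Nras GFPhigh cells, 550.4, 1478 and 1309 in Nras GFP- cells, 889, 401 and 229 in wild-type GFPhigh cells and 868, 721 and 800.2 in wild-type GFP- cells. Every Nras GFPhigh array was below every other array, while the wild-type populations overlapped. The log2 fold change of GFPhigh against GFP- cells over both genotypes was -3.05 ± 0.73 (SE, 6 against 6 arrays, adjusted p = 0.301 in limma). All 5 probe sets of Chek1 had a fold change below 0, between -4.0 and -0.85. The lowest signals, 14.3 and 8.2, came from uneven arrays, Nras GFPhigh replicates 1 and 2. The 2 lowest Nras GFPhigh signals of Brca1, Fancb and Prkdc came from the same arrays.

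Brca1 encodes the recombination factor mutated in hereditary breast cancer. Its signals were 84.3, 27.1 and 667 in Nras GFPhigh cells, 2791, 1739 and 1950.0 in Nras GFP- cells, 285, 995 and 350.1 in wild-type GFPhigh cells and 1713, 203 and 1771 in wild-type GFP- cells. All Nras GFPhigh arrays were below all Nras GFP- arrays, and in wild-type cells one GFP- array lay below the GFPhigh ones. The log2 fold change was -2.54 ± 0.80 (adjusted p = 0.454 in limma), and the 4 probe sets of Brca1 ran between -2.54 and -1.05. Xrcc3, which helps to resolve recombination intermediates, had signals of 329.9, 70.2 and 263 in Nras GFPhigh cells, 460.5, 1467 and 589 in Nras GFP- cells, 99.8, 56.1 and 392 in wild-type GFPhigh cells and 609, 495 and 784 in wild-type GFP- cells. All 6 GFPhigh arrays were below all 6 GFP- arrays. Its log2 fold change was -2.13 ± 0.63 (adjusted p = 0.416 in limma), but the gene's only other probe set gave 1.54, so the 2 probe sets disagree in direction.

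Rpa2 encodes the middle subunit of replication protein A, which coats single-stranded DNA during replication and repair. It had signals of 1440.0, 1768 and 1289 in Nras GFPhigh cells, 2966, 2008 and 2216 in Nras GFP- cells, 1502, 1441 and 1724 in wild-type GFPhigh cells and 2238, 2419 and 2269.6 in wild-type GFP- cells. It varied least between replicates of all 35 genes, and every GFPhigh array was below every GFP- array in both genotypes. The difference was small, -0.62 ± 0.24 on the log2 scale (adjusted p = 0.528 in limma), and its other probe set gave -0.69. Rpa2 and Xrcc3 were the 2 of 35 genes whose 6 GFPhigh arrays all lay below the 6 GFP- arrays, against 0.339% of all genes tested, and 0 lay above, against 0.232%.

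Prkdc encodes the catalytic kinase of end joining, DNA-PKcs. Its signals were 9.8, 24.2 and 278 in Nras GFPhigh cells, 697, 338 and 647 in Nras GFP- cells, 6.5, 149.6 and 230.1 in wild-type GFPhigh cells and 869, 56.9 and 367 in wild-type GFP- cells. The Nras populations did not overlap and the wild-type populations did. The log2 fold change was -2.92 ± 1.07 (adjusted p = 0.508 in limma). Several of these signals are dim, and Prkdc was at -1.45 with 100 added to every signal and at -0.94 with replicate 3 alone. Msh6, at 947, 866 and 2622 in Nras GFPhigh cells, 2516, 3046 and 2849 in Nras GFP- cells, 2559.6, 2588 and 2812 in wild-type GFPhigh cells and 3489.6, 2749 and 3297 in wild-type GFP- cells, had a log2 fold change of -0.68 ± 0.29 (adjusted p = 0.55 in limma). Its 2 lowest values came from uneven arrays, Nras GFPhigh replicates 1 and 2, and without the 4 uneven arrays the fold change was -0.20.

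Among Fanconi genes, Fancg, a core complex subunit, had signals of 639, 187 and 331 in Nras GFPhigh cells, 1509.5, 1339 and 1147 in Nras GFP- cells, 747, 1332 and 1312 in wild-type GFPhigh cells and 1842, 1979 and 786 in wild-type GFP- cells. The 3 Nras GFPhigh arrays were below all others. Its log2 fold change was -1.17 ± 0.43 (adjusted p = 0.514 in limma), with -1.0 from the other probe set. Fancb, an X-linked core complex subunit, had signals of 3.7, 3 and 27.7 in Nras GFPhigh cells, 1045, 486 and 149 in Nras GFP- cells, 184, 1541 and 167 in wild-type GFPhigh cells and 266, 86.8 and 47.7 in wild-type GFP- cells. The Nras GFPhigh arrays were near the bottom of the scale and wild-type GFPhigh cells were not below wild-type GFP- cells, and the average of -2.08 ± 0.85 (adjusted p = 0.545 in limma) combined -5.97 in Nras and 1.81 in wild-type mice. The other probe set of Fancb gave 0.06.

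**Figure D2:**
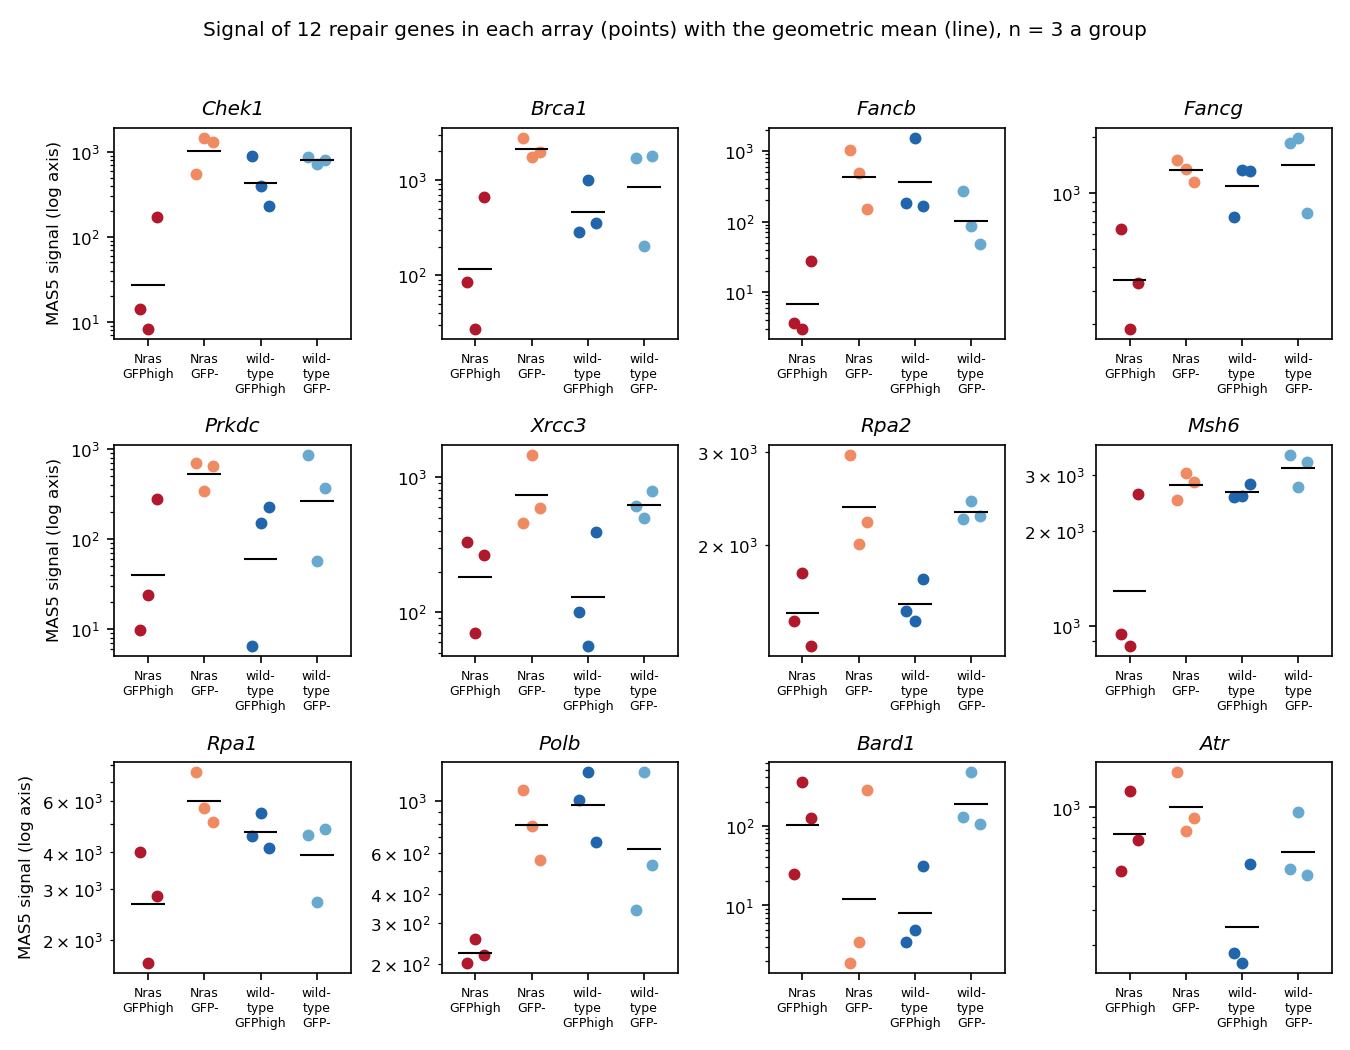
MAS5 signals (log axes) of 12 repair genes on each array, by group from left to right Nras GFPhigh, Nras GFP-, wild-type GFPhigh and wild-type GFP-. Each point is 1 array and the line is the group's geometric mean. The Nras GFPhigh points of Chek1 and Fancb lie below those of the 3 other groups.

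By role, the 3 subunits of replication protein A (median -0.62), the 3 base excision and single-strand break factors (median -0.71) and the 6 break sensing and checkpoint genes (median -0.54) were all below 0. Of all genes tested, 49% were. Parp1, the sensor of single-strand breaks, was at -0.71, its scaffold partner Xrcc1 at -0.85 and the gap-filling polymerase Polb at -0.59. Atr was at -0.86, Rad50, part of the complex that tethers broken ends, at -0.79, and Nbn, Atm and Chek2 lay between -0.29 and -0.21. Rpa1 and Rpa3 were at -0.46 and -0.74. Of 8 recombination genes, 7 were below 0 (median -0.79). Palb2, which links BRCA1 to BRCA2, was at -1.80, Brca2 at -0.85, Bard1, the partner of BRCA1, at -0.72, Rad54l at -0.60 and Rad52 at -0.30, with Rad51c at 0.03. Of 7 Fanconi genes, 6 were below 0 (median -0.40). Fancd2, the protein that the core complex ubiquitinates, was at -1.55, Fanca, Fancm and Fancl lay between -0.40 and -0.03, and Fancc was at 0.48. The 5 end-joining genes had a median of -0.02: Xrcc5 and Xrcc6, the Ku subunits that bind broken ends, were at -0.90 and -0.02, the ligase cofactor Xrcc4 at 1.71 and Trp53bp1 at 0.22. Blm and Wrn, RecQ helicases, were at -1.42 and 0.71. Among these genes outside the 8, no unadjusted p was under 0.05 on the probe sets read. Dimmer probe sets of Fancc (-2.96), Atr (-1.76), Trp53bp1 (-1.38 and -0.99) and Rpa1 (-0.65) were under it in the same comparison. The other probe sets of Polb ran between -0.72 and 0.002. Those of Fancc were at -2.96 and -1.71, of Wrn at -0.10 and -1.57 and of Fancd2 at -1.65, 0.66 and 1.13. The other one of Rad50 gave 0.67, of Fanca 0.46 and of Rad51c -1.26. The others of Rad54l ran between -1.06 and 0.32. Within wild-type mice alone, 2 of the 3 base excision and single-strand break factors were above 0 (median 0.02). Within Nras mice 0 of the 3 were (median -1.73).

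The brightest probe set stood for each gene, and 24 genes had others. Of their 45 other probe sets, 36 had a fold change below 0. The same share over the other probe sets of all genes was not counted. In 12 of the 24 genes every probe set was below 0, in 1 every one was above, and in 11 they disagreed. Trp53bp1, which shields broken ends from resection, is one of these. Its brightest probe set was at 0.22 while its 5 others ran between -1.38 and -0.81. The count of 8 lower genes was 7 with replicates 1 and 2 only, and 0 were higher. Of all genes tested, 7.78% were then under the unadjusted threshold in either direction. Without the 4 uneven arrays, 1 Nras GFPhigh array is left and assumed to vary like the others. Brca1, Prkdc, Fancb and Msh6 were then no longer under the unadjusted threshold, and 22 of 35 genes were below 0. Without Nras GFPhigh replicate 3, Chek1 passed at an adjusted p of 0.0426 in limma, with 16 genes called in all. The Nras GFPhigh group then held only replicates 1 and 2, both uneven arrays.

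Each array was also given a single value, the median over the 35 genes of the log2 signal minus the gene's mean over all arrays. This value was -0.50, -0.24 and -0.01 in Nras GFPhigh cells, 0.72, 0.38 and 0.62 in Nras GFP- cells, 0.01, -0.25 and 0.12 in wild-type GFPhigh cells, and 0.57, 0.23 and 0.29 in wild-type GFP- cells. All 6 GFPhigh arrays were below all 6 GFP- arrays. The same value over 16 tested G2/M genes, markers of dividing cells, averaged -0.27 ± 0.18, 1.23 ± 0.99, -0.93 ± 1.13 and 0.60 ± 0.46 in the same order of groups (SD, n = 3 each). All 16 G2/M genes were below 0 in GFPhigh against GFP- cells over both genotypes, with a median of -1.51. The part of the share of dividing cells in the repair genes' values was not tested.

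**Figure D3:**
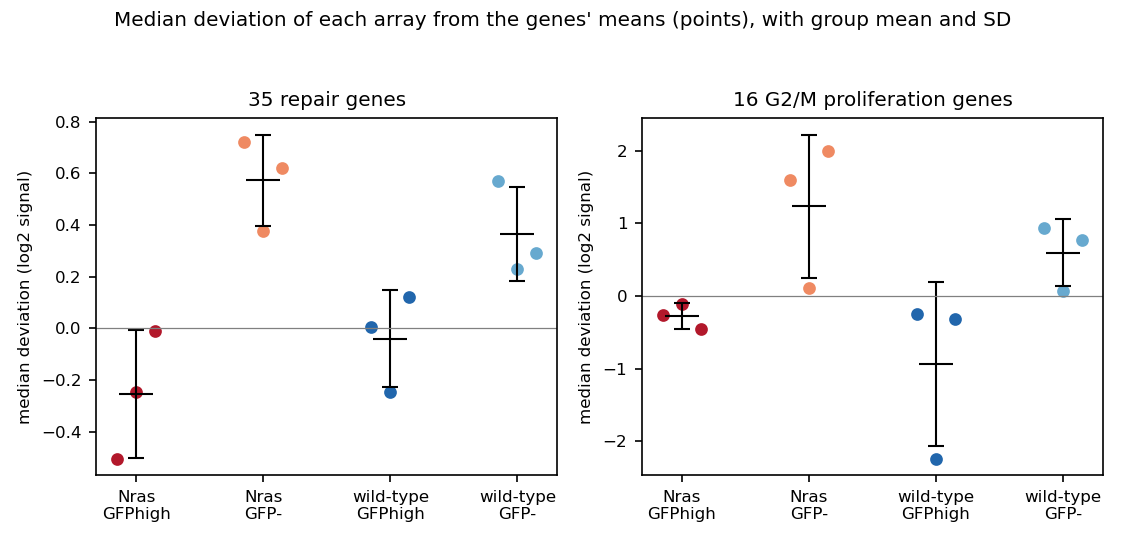
Median deviation (log2) of the 35 repair genes and of the 16 G2/M genes on each array, by group from left to right Nras GFPhigh, Nras GFP-, wild-type GFPhigh and wild-type GFP-. Each point is 1 array, and the bars are the group's mean and SD. The GFPhigh arrays lie below the GFP- arrays in both genotypes.

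Within Nras mice alone, 9 of 35 genes were lower in GFPhigh than in GFP- cells at an unadjusted p under 0.05 and 1 was higher, against 5.97% and 6.2% of all genes tested. No gene passed the adjusted threshold in limma (0% of all genes). The median log2 fold change was -0.81, against 0.08 over all genes, and 25 of 35 were below 0, against 46.8%. Fancb had the largest difference of the 35, -5.97 ± 1.21 (n = 3 each, adjusted p = 0.13 in limma), followed by Chek1 at -5.23 ± 1.03 (adjusted p = 0.13 in limma) and Brca1 at -4.20 ± 1.13 (adjusted p = 0.225 in limma). Fancg had -1.96 ± 0.61 (adjusted p = 0.265 in limma). Their other probe sets gave smaller differences: -0.02 for Fancb, -3.57 to -0.83 for the 4 of Chek1, -1.02 to -0.29 for the 3 of Brca1 and -0.50 for Fancg. The signals of Chek1 and Fancb in Nras GFPhigh cells are given above. All but one are below their own array's median signal, and with 100 added to every signal before the logarithm the fold changes were -2.91 for Chek1 and -2.31 for Fancb.

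Rpa1, the large subunit of replication protein A, had signals of 4014, 1661 and 2836 in Nras GFPhigh cells, 7606, 5701 and 5090.4 in Nras GFP- cells, 4561, 5459 and 4155 in wild-type GFPhigh cells and 4610.2, 2705 and 4808 in wild-type GFP- cells. All Nras GFPhigh arrays were below all Nras GFP- arrays, and in wild-type cells the order was not kept. The log2 fold change in Nras mice was -1.18 ± 0.33 (adjusted p = 0.245 in limma), and its 2 probe sets gave -1.18 and -1.16. Polb, which fills the gap in base excision repair, had signals of 202, 256 and 219 in Nras GFPhigh cells, 1122, 780.2 and 562 in Nras GFP- cells, 1016, 1333 and 667 in wild-type GFPhigh cells and 342, 1339 and 536 in wild-type GFP- cells. Its Nras GFPhigh values lay close together and below every other array, and the fold change was -1.81 ± 0.66 (adjusted p = 0.336 in limma), although 2 of its 4 probe sets were above 0.

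Msh6 (-1.11), Prkdc (-3.73) and Xrcc3 (-2.01) were the remaining lower genes, and the higher one was Trp53bp1 at 0.43 ± 0.19, with adjusted p-values of 0.336 to 0.401 in limma. The signals of Trp53bp1 were 10402, 10229.8 and 7137 in Nras GFPhigh cells, 7685, 6406 and 6311 in Nras GFP- cells, 7339, 8490.5 and 6643 in wild-type GFPhigh cells and 6026, 8585 and 7688 in wild-type GFP- cells, and the Nras populations overlapped. Its 5 other probe sets were below 0 in the same comparison. The Nras populations did not overlap for 10 of 35 genes, all lower in GFPhigh cells, against 6.21% of all genes tested that were lower and 6.7% that were higher without overlap. These were Fancb, Fancg, Brca1, Xrcc3, Prkdc, Chek1, Rpa1, Rpa2, Xrcc1 and Polb. Without Nras GFPhigh replicate 3, the array with the highest Chek1 and Brca1 signals of its group, 4 genes passed in limma at adjusted p-values of 0.00766 (Chek1), 0.0263 (Fancb), 0.0328 (Brca1) and 0.0406 (Msh6), with 161 genes called in all. These calls rest on Nras GFPhigh replicates 1 and 2, both uneven arrays with weights of 0.403 and 0.503.

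In Nras mice the median was -0.33 without Nras GFPhigh replicate 1 and -0.47 without the 4 uneven arrays. Leaving them out keeps 1 Nras GFPhigh array, which is then assumed to vary like the arrays of the other groups. On that footing Brca1, Polb, Msh6, Prkdc and Xrcc3 were no longer under the unadjusted threshold, and Brca1 was at -1.46. Markers of other lineages varied between the groups and within them as well. The summed signal of 12 granulocyte markers ran between 6037 and 59185 in Nras GFPhigh cells, 4572 and 5591 in Nras GFP- cells, 1032 and 13190 in wild-type GFPhigh cells, and 2565 and 13391 in wild-type GFP- cells. The summed signal of 10 stromal and endothelial markers ran between 4131 and 8518, 1642 and 4601, 1617 and 3893, and 3518 and 3899 in the same groups. That of 5 megakaryocyte markers ran between 842.5 and 2035.5 in Nras GFPhigh cells and 1992 and 4630 in Nras GFP- cells. Monocyte, erythroid, B cell and T cell sums each had their highest value on an Nras GFPhigh array. None of these markers was listed at 0 on any array. Their part in the repair genes' values was not tested.

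Within wild-type mice, 2 of 35 genes were lower in GFPhigh than in GFP- cells at an unadjusted p under 0.05 and 0 were higher, against 1.15% and 1.05% of all genes tested, and none passed the adjusted threshold in limma (0% of all genes). The median was -0.51, against -0.03 over all genes, and it was -0.24 without wild-type GFPhigh replicate 2. Of 35 genes, 25 were below 0, against 52.2%. The 2 genes were Bard1 at -4.51 ± 1.72 and Xrcc3 at -2.25 ± 0.89 (n = 3 each, adjusted p = 1 for both in limma). Bard1 had signals of 24.8, 350.0 and 124 in Nras GFPhigh cells, 1.9, 3.5 and 275 in Nras GFP- cells, 3.5, 5 and 31.1 in wild-type GFPhigh cells and 129.5, 474 and 104 in wild-type GFP- cells. The wild-type populations did not overlap, but all 3 wild-type GFPhigh values are dim.

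The next in order were Fancd2 (-1.98), Atr (-1.26), Fancm (-1.59), the helicase-like factor that remodels stalled forks, and Rpa2 (-0.57). The wild-type populations did not overlap for Fancd2, Bard1, Rad54l, Xrcc3, Rpa2 and Parp1, all lower in GFPhigh cells, which is 6 of 35 genes against 5.81% of all genes tested, or for Wrn, higher in GFPhigh cells, against 5.3%. Chek1 (-0.87), Brca1 (-0.88) and Fancb (1.81) had adjusted p-values of 1 in limma in wild-type mice, and another probe set of Brca1 gave -4.24. The count of lower genes was 0 without wild-type GFPhigh replicate 1, 0 without wild-type GFPhigh replicate 2, 4 without wild-type GFPhigh replicate 3 and 1 when any one of the wild-type GFP- arrays was left out.

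**Figure D4:**
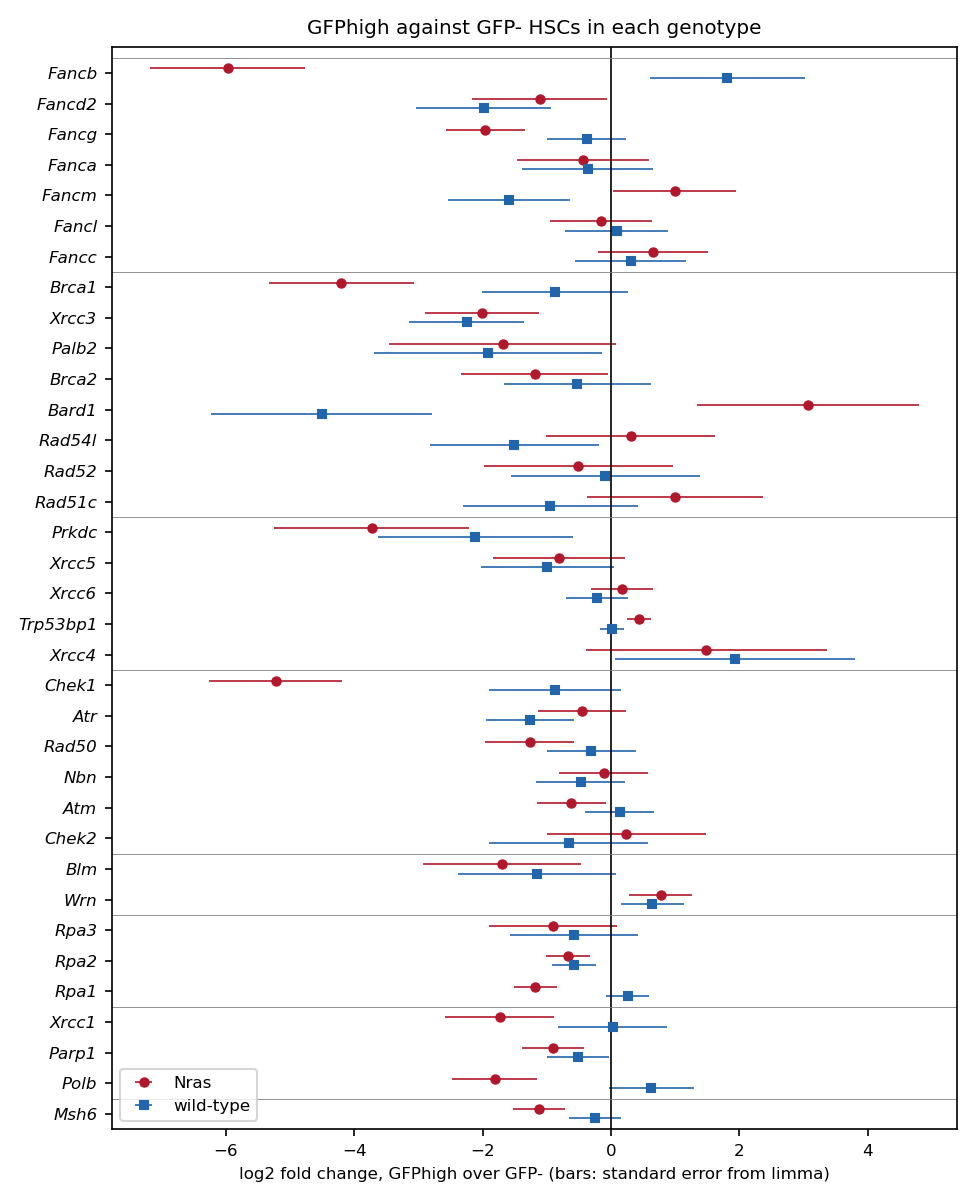
Log2 fold changes of GFPhigh against GFP- cells for the 35 genes in Nras mice and in wild-type mice, with bars for the SE. Values left of 0 are lower in GFPhigh cells, and the black line marks 0. The bars of many genes span 0, and those of Chek1, Brca1 and Fancb in Nras mice do not.

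The difference between these 2 fold changes, Nras minus wild-type, was tested as an interaction. It had an unadjusted p under 0.05 for 4 genes with a value below 0 and 1 above, against 2.25% and 2.43% of all genes tested, and passed the adjusted threshold for none in limma (0% of all genes). The values were -7.78 ± 1.71 for Fancb, -1.44 ± 0.47 for Rpa1, -4.35 ± 1.46 for Chek1, -2.44 ± 0.93 for Polb and 7.57 ± 2.44 for Bard1, each with an adjusted p of 0.956 in limma. The probe sets of these genes differed. The other one of Fancb gave -0.16, the 4 others of Chek1 ran between -0.66 and 0.87 with 3 of them above 0, the 4 of Polb between -2.44 and 2.08, and the other one of Rpa1 gave -1.03. Brca1 came next, at -3.32 ± 1.60, but its 3 other probe sets were above 0, between 0.15 and 3.95, and it was at -0.036 without the 4 uneven arrays. Of 35 genes, 20 were below 0, against 46.1% of all genes, with a median of -0.25 against 0.11, and it ran between -0.55 and 0.089 with 1 array left out.

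The genotype was compared within each population. These comparisons share arrays with those above: the Nras GFPhigh arrays enter both. In GFPhigh cells, Nras against wild-type, 6 of 35 genes were lower at an unadjusted p under 0.05 and 2 higher, against 5.12% and 3.17% of all genes tested, with none past the adjusted threshold in limma (0% of all genes). Fancb was at -5.75 ± 1.21 and Chek1 at -3.99 ± 1.03 (n = 3 each, adjusted p = 0.409 for both in limma). Polb was at -2.11 ± 0.66 (adjusted p = 0.475 in limma), Fancg at -1.68 ± 0.61 (adjusted p = 0.524 in limma), Msh6 at -1.04 ± 0.41 and Rpa1 at -0.82 ± 0.33. Other probe sets gave smaller values or the opposite sign: 0.04 for Fancb, -2.57 to 0.41 for the 4 of Chek1, -2.10 to 1.68 for the 3 of Polb, -0.50 for Fancg and -0.22 for Rpa1. Of 35 genes, 19 were below 0, against 53.9%, with a median of -0.06 against -0.09 over all genes. With replicate 3 alone, Chek1 was at -0.40 in this comparison.

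The higher genes were Fancm at 2.50 ± 0.95 (adjusted p = 0.537 in limma) and Atr at 1.57 ± 0.69 (adjusted p = 0.589 in limma). The signals of Fancm were 1893, 328 and 1178 in Nras GFPhigh cells, 418, 404 and 552 in Nras GFP- cells, 217, 43.3 and 431 in wild-type GFPhigh cells and 207, 762 and 693 in wild-type GFP- cells. Its Nras GFPhigh values overlapped the wild-type GFPhigh ones, and its 3 probe sets ran between -0.96 and 2.50. The signals of Atr were 475, 1219 and 686 in Nras GFPhigh cells, 1522, 756 and 882 in Nras GFP- cells, 182, 162 and 517 in wild-type GFPhigh cells and 488, 948 and 454 in wild-type GFP- cells. One wild-type GFPhigh array exceeded the lowest Nras GFPhigh array, and its 3 probe sets ran between -1.97 and 1.57. The GFPhigh groups did not overlap for Fancb, Fancg, Atm, Chek1, Rpa1 and Polb, all lower in Nras, which is 6 of 35 against 7.37% of all genes tested. Without the 4 uneven arrays, which leaves 1 Nras GFPhigh array, none of Fancb, Chek1, Polb, Fancg, Msh6 and Rpa1 stayed under the unadjusted threshold. With the mean over a gene's probe sets the lower genes were Fancb and Msh6, and Bard1 was higher. Of all genes tested, 7.32% were then under that threshold in either direction.

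In GFP- cells, Nras against wild-type, Bard1 was lower at -3.92 ± 1.72 (unadjusted p under 0.05, adjusted p = 0.983 in limma) and 0 of 35 genes were higher, against 3.42% and 0.968% of all genes tested. Bard1 was no longer under that unadjusted threshold without Nras GFPhigh replicate 3, without Nras GFP- replicate 1 or 2, without any one of the wild-type GFP- arrays, without the 4 uneven arrays, with array weights or with 100 added to every signal. No gene passed the adjusted threshold (0% of all genes). Next came Rpa1 (0.63), Fancb (2.03), Xrcc1 (1.40), Rad52 (-1.96) and Brca1 (1.31). Single arrays carried much of these values: without Nras GFP- replicate 1, Rad52 was at -0.097 and Xrcc1 at 0.82, and without wild-type GFP- replicate 2, Brca1 was at 0.28 and Rpa1 at 0.36. The 2 genotypes did not overlap for Rpa1 and Xrcc1, both higher in Nras, which is 2 of 35 against 4.07% of all genes tested, and 0 of 35 were lower without overlap, against 6.72%. Of 35 genes, 16 were below 0, against 59.4%, with a median of 0.12 against -0.17 over all genes, and it was -0.018 without Nras GFP- replicate 1. Averaged over both populations, Nras against wild-type, 2 genes were lower, Chek1 (-1.81) and Fancb (-1.86), and 1 was higher, Atr (1.16), against 5.12% and 2.66% of all genes tested, with adjusted p-values of 0.609 to 0.64 in limma. A second probe set of Atr, about as bright, gave -1.35, and that of Fancb 0.12, while with replicate 3 alone Chek1 was at 0.15. Each of the 3 genes was above the unadjusted threshold when one or another single array was left out. Of all genes, 1 of those tested passed the adjusted threshold (0.00828%), and it is not among the 35. Msh6 (-0.61), Rad52 (-2.17), an annealing factor, and Fancg (-0.89) followed. Of 35 genes, 17 were below 0, against 59.4%, with a median of 0.05 against -0.15 over all genes. For 0 of 35 genes were the 6 Nras arrays all below or all above the 6 wild-type arrays, against 0.215% and 0.157%.

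A wider list of 88 other repair genes, of which 72 were tested, gave the surrounding pathways. In GFPhigh against GFP- cells over both genotypes, 14 of 72 were lower at an unadjusted p under 0.05 and 0 higher, against 4.51% and 4.36% of all genes tested, 49 were below 0, and the median was -0.31. The 4 of smallest p were Exo1, a nuclease that resects broken ends and mismatched strands (-4.06 ± 1.01, adjusted p = 0.301 in limma), Recql4, a RecQ helicase (-2.99 ± 0.92), Mre11a, the nuclease that works with RAD50 and NBN (-1.59 ± 0.52), and Topbp1, the activator of ATR (-1.47 ± 0.48). The signals of Exo1 were 15.7, 3.8 and 13.4 in Nras GFPhigh cells, 880.2, 370.0 and 755 in Nras GFP- cells, 101, 3.8 and 311 in wild-type GFPhigh cells and 317, 52.5 and 504 in wild-type GFP- cells. All Nras GFPhigh values were dim and below all GFP- values.

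In Nras mice 15 of the 72 were lower and 2 higher in GFPhigh cells, against 5.97% and 6.2% of all genes tested, led by Exo1 (-6.08) and Polh, a translesion polymerase (-1.97). In wild-type mice 0 were lower and 0 higher, against 1.15% and 1.05%, with Tipin (-1.10) and Rad17 (-2.40), replication checkpoint factors, of smallest p. In GFPhigh cells, Nras against wild-type, 2 were lower, the translesion polymerase Poli (-1.58) and the glycosylase Nthl1 (-2.85), and 1 was higher, against 5.12% and 3.17%. In GFP- cells 0 were lower and 1 was higher, Recql4 (2.88), against 3.42% and 0.968%, with Ercc6, a transcription-coupled repair factor, next (-2.04). Over both populations 1 was lower, Ercc6 (-1.92), and 0 were higher, against 5.12% and 2.66%, with Smc6 next (0.53). The interaction had 2 genes below 0 and 1 above, against 2.25% and 2.43%, led by the excision nuclease subunit Ercc1 (2.96) and Polh (-1.91). None of the 72 passed the adjusted threshold in limma in any comparison.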

How the data were processed

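RNA of sorted HSC populations was measured on 12 one-colour Affymetrix arrays, 1 array per sample and 3 per group, grouped by the labels. The deposited values are MAS5 intensity signals on a linear scale, per the submitters' processing notes; the version and detection calls of MAS5 are not given there. The mean signal without the lowest and highest 2% of probe sets is 500 on every array.

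Of 45101 probe sets, 34945 had 1 gene symbol, 932 had several and 9160 had none, and 64 were control probe sets; names came from the platform annotation. The number of arrays limits the precision. Signals were turned to log2, with 3 zeros set to 0.1, and the probe set of highest mean log2 signal stood for each gene. A gene was kept where its signal exceeded the array's median on at least 3 arrays. limma 3.58.1 in R 4.3.3 (lmFit, eBayes with an intensity trend) fitted a mean per group over all 12 arrays, with 7 contrasts and Benjamini-Hochberg adjustment over 12083 genes, tested on simulated data first. Fold changes are differences of mean log2 signals.

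The genes and lists, including the wider repair list and the marker lists, were chosen with earlier results of these data known. Named are, in each comparison, up to 6 genes of smallest p, every gene at an unadjusted p under 0.05 over both genotypes, up to 4 per role, and the first 4 or 2 of the wider list. Other genes named for no overlap between groups were chosen after their values were seen. Alternatives were array weights, no filter, quantile normalization, median centring, 100 added to signals, other choices of probe set, the replicate number as a block, and arrays left out.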

Additional observations from a re-analysis of the deposited data

Results flagged for a closer look

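Among the 35 genes, Rpa1 was the one whose difference between genotypes ran in opposite directions in the 2 populations on every array. It was picked after its values were seen. Of all genes tested, 7.37% were lower in Nras without overlap in GFPhigh cells and 4.07% higher in GFP- cells. The share with both was not counted. All 3 Nras GFPhigh arrays (4014, 1661 and 2836) were below all 3 wild-type GFPhigh arrays (4561, 5459 and 4155). All 3 Nras GFP- arrays (7606, 5701 and 5090.4) were above all 3 wild-type GFP- arrays (4610.2, 2705 and 4808). The interaction was -1.44 on the log2 scale and did not pass the threshold (adjusted p = 0.956 in limma). It ran between -2.08 and -0.63 over the alternatives. The other probe set of Rpa1 gave -0.22 for genotype in GFPhigh cells and 0.81 in GFP- cells.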

How the results depend on the processing

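Over 22 alternatives (23 for medians, with replicate 3 alone), the number of the 35 genes lower in GFPhigh cells at an unadjusted p under 0.05 ran between 6 and 11 over both genotypes and between 6 and 10 in Nras mice, with medians of -0.85 to -0.51 and -1.30 to -0.33, all below 0. The share of all genes tested under that p, lower or higher, ran between 6.38% and 12.2% over both genotypes. In Nras mice it ran between 7.27% and 15.4%. With 1 array left out, the number of genes passing the adjusted threshold ran from 0 to 1 over both genotypes and 0 to 4 in Nras mice. It ran from 0 to 1 for genotype in GFPhigh cells and was 0 for the other comparisons. Each such call came without Nras GFPhigh replicate 3, which leaves only uneven arrays in that group. Medians with 1 array left out ran from -0.54 to -0.24 in wild-type mice, -0.92 to -0.33 in Nras mice, -0.17 to 0.12 for genotype over both populations and -0.55 to 0.089 for the interaction. Median centring moved the median of all genes to -0.41 in Nras mice, 0.43 for genotype in GFP- cells, 0.13 for genotype over both populations and -0.53 for the interaction, and the list's medians to -1.30, 0.73, 0.34 and -0.88, and it left 3 lower genes for genotype in GFPhigh cells. Those 3 stood beside 2 higher genes, against 6.04% of all genes tested in either direction. Without the 4 uneven arrays the medians were -0.24 in wild-type and -0.47 in Nras mice. With replicate 3 alone the wild-type median was -0.28 and the interaction's -0.55, and with replicates 1 and 2 only the interaction's was 0.077. The mean over probe sets gave medians of -0.33 for genotype in GFPhigh cells and -0.11 in GFP- cells. In GFPhigh cells 2 genes were then lower and 1 higher, against 7.32% of all genes tested in either direction. Single genes turned direction: without shared probe sets, Xrcc3 was 1.54 over both genotypes and 1.83 in wild-type mice, and Rad52 0.29 for genotype in GFP- cells; with replicate 3 alone, Atr was 0.19 in wild-type mice, Chek1 0.15 for genotype over both populations, Bard1 1.41 for genotype in GFP- cells and Brca1 0.79 for the interaction; with the mean over probe sets, Atr was -0.11 for genotype over both populations and Brca1 -0.054 for genotype in GFP- cells and 0.54 for the interaction. The causes were not tested. Deviations of same-numbered arrays from their group means correlated between -0.04 and 0.15, over 0.1 in 3 pairs of replicate 3 only. Arrays of different replicate number were not compared, so these values do not settle whether the numbers pair the arrays. Replicate 3 of every group did share low Xist and high Eif2s3y signals. With the replicate number as a block, 9 genes were lower and 0 higher over both genotypes. Of all genes tested, 9.26% were under that p in either direction. In Nras mice 10 were lower and 1 higher, against 12.5%, and for genotype in GFPhigh cells 6 and 2, against 8.83%. With that block 0 passed the adjusted threshold. Dim signals, with no detection calls, limit the folds of Chek1, Fancb, Prkdc, Bard1 and Exo1.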
